A study of Homo sapiens with 15 samples.

Results

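The genes described here are DNA repair and checkpoint genes, taken from a list of 49 gene symbols grouped by function. Probes annotated to these symbols were found for 46 of them, against 18334 genes measured in all. BRCA2, FANCA and FANCD2 had no probe in the annotation used and are not analysed here. The cells were K562, a human erythroleukaemia line grown in suspension (the labels write DNSZ K562). Treated cultures received 1 mM valproic acid, an anticonvulsant that also inhibits histone deacetylases, and untreated cultures received no agent. RNA was collected after 2, 6, 10, 48 and 72 h, and RNA of treated and untreated cells was hybridised together on 2-colour arrays, 3 for each time or 15 altogether. Each replicate number stands for its own thawing of the line. Treated RNA was labelled with Cy5 in replicates 1 and 2, and the dyes were exchanged in replicate 3.

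DNA repair is shared among several pathways that recognise different lesions. Nucleotide excision repair cuts out bulky adducts and ultraviolet photoproducts, base excision repair removes single damaged bases and closes single-strand breaks, and mismatch repair corrects replication errors. Double-strand breaks are joined end to end or copied from the sister chromatid by homologous recombination, the Fanconi anaemia proteins unhook crosslinks, and checkpoint kinases hold the cell cycle while repair goes on. Many recombination and checkpoint genes are transcribed mostly in cells that are about to replicate or are replicating their DNA.

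Every value below is a log2 ratio of treated over untreated RNA, so values above 0 mean more transcript in treated cells. No source names the base of the deposited log ratios. They were read as log2, on which the folds depend but the tests do not. A gene was called when its adjusted p was under 0.05 in limma, with Benjamini-Hochberg adjustment over all 18334 genes of that comparison, and errors after ± are limma's SEs from 3 arrays a time with the spread pooled over 15. The median SE was 0.0614 for the repair genes and 0.0602 for all genes. Ratios carry no expression level, so neither the abundance of a repair gene nor the markers of K562 cells could be checked as levels, and dim probes were not removed. The number of arrays limits the precision. Array medians over all probes lay between -0.00522 and 0.0169. Replicate 3 at 72 h stood apart from the other 2 arrays of that time for the repair genes, whose median was -0.23 on it, against -0.09 and -0.08 on replicates 1 and 2.

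Valproic acid changed many repair genes, all of them modestly. At 6, 48 and 72 h more repair genes were lower than higher, and at 10 h the 2 counts were nearly equal. More of all genes were higher than lower at each of these times. Some calls held whichever array of that time was left out. These were 6 lower and 5 higher at 6 h, and 4 lower and 4 higher at 10 h. At 48 h they were 7 lower and 5 higher, and at 72 h 9 lower and 4 higher. At 2 h, 2 of 46 repair genes were higher in treated cells and 0 were lower, against 4.82% of all genes higher and 1.53% lower. At an unadjusted p under 0.05 in limma, 4 were higher and 4 lower at that time, and with arrays scaled to a common spread 4 were called higher and 7 lower, against 13.9% and 7.21% of all genes under that scaling. At 6 h, 8 were higher and 12 lower, against 19% and 9.66% of all genes. At 10 h, 9 were higher and 10 lower, against 18.1% and 11.6% of all genes. At 48 h, 8 were higher and 14 lower, against 23.3% and 14.6% of all genes. At 72 h only 4 were higher and 22 were lower, which is 8.70% and 47.8% of the repair genes, against 22.1% and 13.6% of all genes. The share of lower genes was thus above that of all genes at 6, 10, 48 and 72 h, and the share of higher genes was below it at 48 and 72 h. The list was chosen with earlier results of these data known, so these shares describe the list and test nothing. No repair gene reached a 2-fold change at any time, and the largest ratio was 0.89 for ERCC1 at 48 h. The median ratio of the repair genes was -0.03, 0.01, -0.05, -0.09 and -0.14 at 2, 6, 10, 48 and 72 h, whereas the median of all genes stayed between 0.00 and 0.01.

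**Figure D1:**
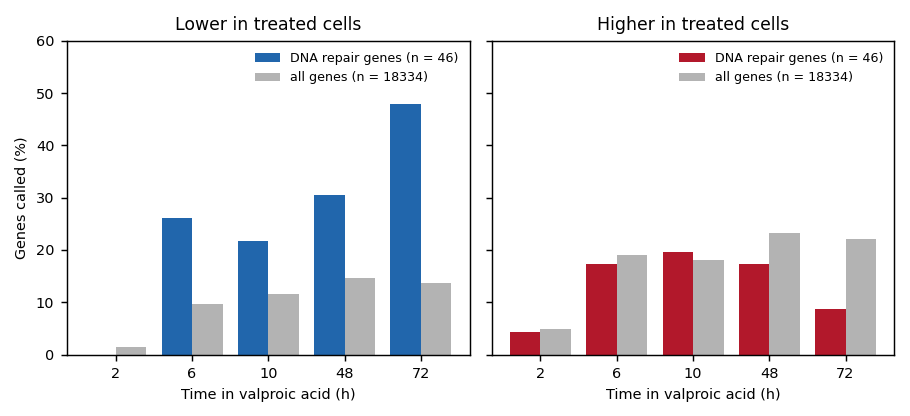
Share of genes called lower (left panel) and higher (right panel) in treated cells at each time, in percent, for the 46 DNA repair genes (coloured bars) and for all 18334 genes (grey bars). At 72 h the repair genes stand at 47.8% lower and 8.70% higher, against 13.6% and 22.1% of all genes.

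The count at 72 h leaned on replicate 3 of that time. Without that array 9 repair genes were called lower, against 7.53% of all genes, and all 9 were among the 22. They were RAD50, PMS2, LIG3, ERCC2, WRN, FANCG, RAD52, CHEK1 and NBN, and these 9 were called lower whichever of the 3 arrays at 72 h was left out. Without replicate 3 at every time 11 were called lower, against 8.03% of all genes. All 3 arrays at 72 h lay below 0 for 26 repair genes and above 0 for 5, whereas this held for 21.0% and 29.5% of all genes. The counts at other times, and the share of all genes called, moved as well when single arrays of that time were left out. At 6 h 7 were lower without replicate 2, against 6.28% of all genes. At 10 h, without replicate 3, 5 were higher and 5 lower, against 12.3% and 6.22% of all genes. At 48 h 5 were higher and 9 lower without replicate 2, against 18.8% and 11.9% of all genes, and the same counts came without replicate 3, against 18.8% and 9.13%. At 2 h 1 was higher without replicate 1 or without replicate 3, against 2.36% and 1.79% of all genes. Leaving replicate 3 out of every time gave 4 higher and 6 lower at 6 h (15.1% and 8.51% of all genes), 5 higher at 10 h (14.5%) and 0 higher at 2 h (2.52%), and leaving replicate 2 out of every time gave 7 lower at 6 h (6.57%).

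Seen gene by gene over the 5 times, 25 repair genes were called only lower, 10 only higher, 1 in both directions and 10 at no time. Of all 18334 genes, 3981 were called only lower, 5847 only higher, 333 in both directions and 8173 at no time. ERCC5 was higher at all 5 times, and no repair gene was lower at all 5, against 472 and 113 of all genes. NBN, RAD50, UNG, LIG3 and XRCC2 were lower at each time from 6 to 72 h, as were 744 of all genes. At both 48 and 72 h, 12 repair genes were lower and 4 were higher, the 4 being ERCC1, ERCC5, OGG1 and TP53BP1. The matching count over all genes is not given here. BLM, FANCE, FANCI and PARP1 were called at 72 h and at no other time, all 4 of them lower.

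**Figure D2:**
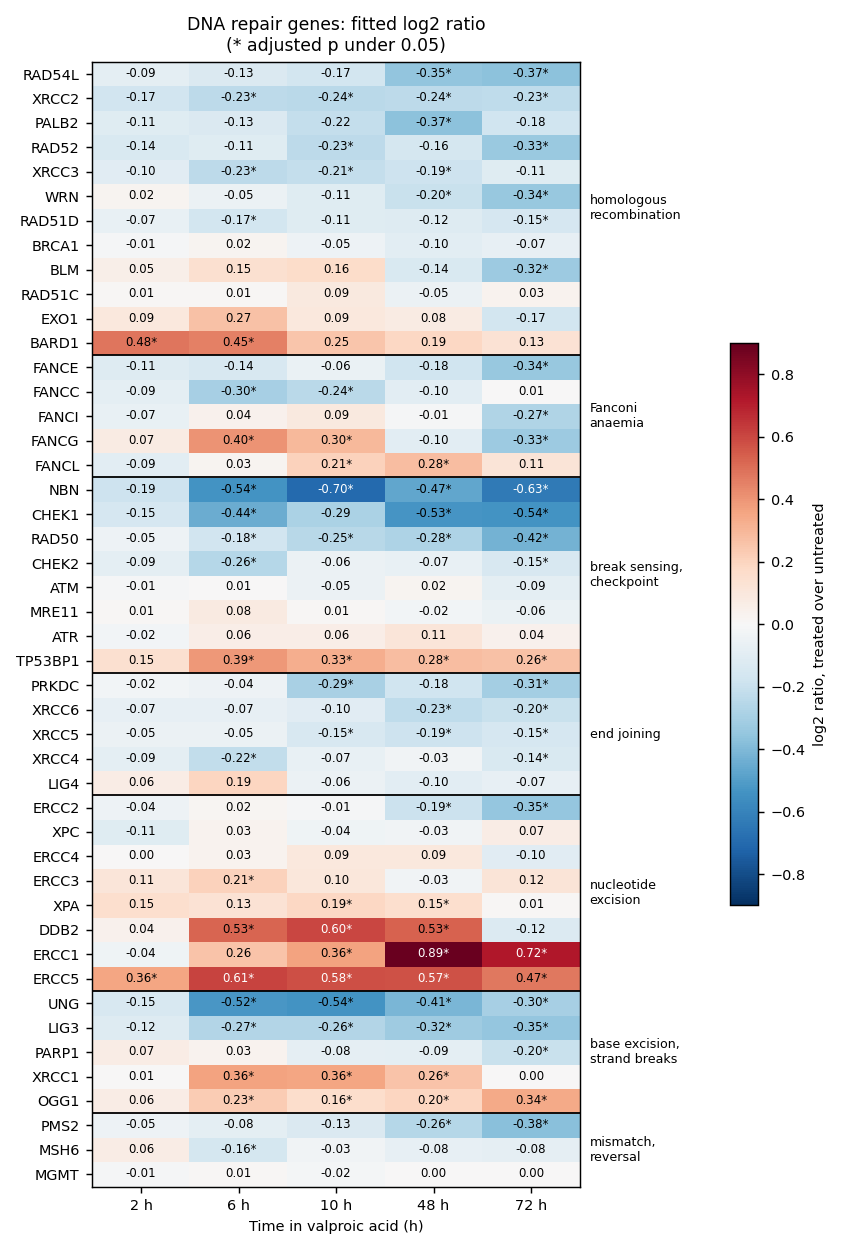
Fitted log2 ratio of treated over untreated RNA for each of the 46 DNA repair genes (rows, grouped by role) at 2, 6, 10, 48 and 72 h (columns), with red for higher and blue for lower in treated cells and a star for an adjusted p under 0.05. The nucleotide excision repair block holds the strongest red cells, up to 0.89 for ERCC1, and the checkpoint block the strongest blue ones, down to -0.70 for NBN.

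Promoter sequences are shown for the 2 lowest and the 2 highest genes by the mean of 48 and 72 h among those called at both times, leaving out NBN. The windows run from 250 bases before to 50 bases after an annotated start and come from RefSeq (GRCh38.p14): CHEK1 at chr11:125625979-125626278 on the plus strand, RAD54L at chr1:46247438-46247737 on the plus strand, ERCC1 at chr19:45451498-45451797 on the minus strand and ERCC5 at chr13:102845782-102846081 on the plus strand. Each window covers 1 annotated start, and other starts of these genes were not examined. For ERCC1 this start lies at the outer end of the annotated gene and may not be its main start. Capitals mark CCAAT or its reverse complement ATTGG, the core bound by NF-Y, a factor common at promoters of cell cycle genes.
CHEK1: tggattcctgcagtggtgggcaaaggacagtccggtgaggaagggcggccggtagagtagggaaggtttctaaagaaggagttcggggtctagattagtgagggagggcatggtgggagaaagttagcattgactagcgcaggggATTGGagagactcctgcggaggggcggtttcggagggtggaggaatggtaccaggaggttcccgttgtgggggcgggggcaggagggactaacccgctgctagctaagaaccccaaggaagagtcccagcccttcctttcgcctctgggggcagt
RAD54L: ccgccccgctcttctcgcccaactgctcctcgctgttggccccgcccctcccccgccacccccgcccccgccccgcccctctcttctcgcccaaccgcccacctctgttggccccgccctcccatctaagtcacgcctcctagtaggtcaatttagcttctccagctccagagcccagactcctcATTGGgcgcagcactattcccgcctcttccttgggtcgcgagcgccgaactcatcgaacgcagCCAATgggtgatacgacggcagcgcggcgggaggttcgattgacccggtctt
ERCC1: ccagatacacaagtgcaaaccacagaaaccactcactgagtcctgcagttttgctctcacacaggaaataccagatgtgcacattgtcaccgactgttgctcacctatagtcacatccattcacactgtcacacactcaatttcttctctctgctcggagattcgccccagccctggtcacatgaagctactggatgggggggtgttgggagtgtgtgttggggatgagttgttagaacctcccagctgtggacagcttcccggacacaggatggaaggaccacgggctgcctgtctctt
ERCC5: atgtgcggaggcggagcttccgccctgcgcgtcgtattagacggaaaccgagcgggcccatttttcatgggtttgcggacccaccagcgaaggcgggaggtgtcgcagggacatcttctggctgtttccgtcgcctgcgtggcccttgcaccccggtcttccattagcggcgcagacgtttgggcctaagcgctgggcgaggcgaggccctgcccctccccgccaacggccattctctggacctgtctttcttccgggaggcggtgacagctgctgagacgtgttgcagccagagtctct
The CHEK1 window held 1 CCAAT core, RAD54L held 2, and ERCC1 and ERCC5 held none. Of the 41 repair genes with an entry in the promoter table, 18 (43.9%) held CCAAT on either strand, against 35.7% of all 27305 promoters. An E2F-type site, counted on either strand as any of TTTGGCGC, TTTCCCGC, TTTGGCGG, TTTCCCGG or TTTCGCGC, was found in 9 of 41 (22%), against 4.82% of all promoters. E2F factors drive genes needed for DNA replication. The 9 genes were ATR, EXO1, FANCC, MSH6, PARP1, RAD50, XPC, XRCC2 and XRCC6, and none of the 4 windows printed above held such a site. The CHR element TTTGAA, searched on either strand, was found in 3 of 41 (7.32%), against 15.4% of all promoters. Of the 9 genes with an E2F-type site 4 were lower at 72 h, against 13 of the 32 without. Of the 18 with a CCAAT core 9 were lower at 72 h, against 8 of the 23 without. These matches describe letters in a short window and were not tested.

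Among the 8 nucleotide excision repair genes of the list, the highest ratios were those of ERCC1, ERCC5 and DDB2. None of the 8 genes was lower at 2, 6 or 10 h, against 1.53%, 9.66% and 11.6% of all genes. For as few as 8 genes, 0 is not far from these shares. Of 14 other nucleotide excision repair genes 0, 3 and 5 were lower at these 3 times, and 0, 2 and 3 were higher. The counts of higher genes among the 8 were 1, 3, 4, 4 and 2 at 2, 6, 10, 48 and 72 h. Of all genes 4.82%, 19%, 18.1%, 23.3% and 22.1% were higher at these times. Also at an unadjusted p under 0.05 in limma, 0 of the 8 were lower at the 3 early times. ERCC1, the partner of ERCC4 in the nuclease that cuts on one side of the lesion, gave -0.07, -0.15 and 0.05 on the 3 arrays at 2 h and 0.79, 0.99 and 0.84 at 48 h. At 72 h its arrays gave 0.72, 0.34 and 1.04. All 6 late arrays lay above all 3 arrays at 2 h. The fitted ratio was 0.89 ± 0.10 at 48 h (1.86-fold, limma adjusted p = 1.72e-05) and 0.72 ± 0.10 at 72 h (1.64-fold, adjusted p = 1.13e-04). At 10 h it was 0.36 ± 0.10, a call that was lost without replicate 1 (adjusted p = 0.16) or replicate 3 (adjusted p = 0.068) of that time. ERCC4 itself (XPF), which holds the catalytic centre of that nuclease, was called at no time, with ratios between -0.10 and 0.09.

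ERCC5 (XPG), the nuclease that cuts on the other side, gave 0.28, 0.11 and 0.51 at 2 h, then 0.52, 0.41 and 0.73 at 6 h, and 0.33, 0.29 and 0.64 at 72 h. All 15 of its arrays were above 0, and replicate 3 was the highest array at every time. Its ratio was highest at 6 h with 0.61 ± 0.05 (1.52-fold, limma adjusted p = 4.93e-06) and lowest at 2 h with 0.36 ± 0.05 (adjusted p = 9.08e-04). ERCC5 was among the 9 repair genes for which the dye term, which sets replicate 3 against the other arrays, was itself called (coefficient -0.16, adjusted p = 8.26e-04). Without replicate 3 at any time its 2 h ratio was 0.20 and was not called (adjusted p = 0.20).

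DDB2, the damage sensor for ultraviolet photoproducts, gave 0.54, 0.49 and 0.58 at 6 h, then 0.60, 0.58 and 0.67 at 10 h, and 0.48, 0.67 and 0.49 at 48 h. The 9 arrays of these times lay closely together and all exceeded the 3 arrays at 2 h, which gave 0.08, -0.04 and 0.12. At 72 h the arrays parted, with 0.56 on replicate 1 against -0.37 and -0.50 on replicates 2 and 3. The fitted ratio was 0.53 ± 0.14, 0.60 ± 0.14 and 0.53 ± 0.14 at 6, 10 and 48 h (limma adjusted p = 0.0127, 0.00556 and 0.0089) and -0.12 ± 0.14 at 72 h (adjusted p = 0.57). Because 1 spread per gene is pooled over all times, the disagreement at 72 h also widened the error at the earlier times. The calls at 6 h, 10 h and 48 h were lost without replicate 3 of that time (adjusted p = 0.12, 0.082 and 0.061), and the one at 48 h also without its replicate 2 (adjusted p = 0.057). Without replicate 1 at 72 h the ratio there was -0.44 and was called lower (adjusted p = 1.65e-04).

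ERCC2 (XPD), a helicase subunit of the transcription factor TFIIH that opens the helix around the lesion, went the other way. Its arrays gave -0.16, -0.10 and 0.05 at 2 h, then -0.27, -0.21 and -0.17 at 48 h, and -0.34, -0.48 and -0.29 at 72 h. The 3 arrays at 72 h were all lower than the 3 at 48 h. The ratio was -0.19 ± 0.05 at 48 h (limma adjusted p = 0.00765) and -0.35 ± 0.05 at 72 h (adjusted p = 1.25e-04). The call at 48 h was lost without replicate 3 of that time (limma adjusted p = 0.10). The 2 array features of ERCC2 averaged -0.57 and -0.17 at 72 h, and -0.13 and 0.06 at 10 h. ERCC3 (XPB), the other TFIIH helicase, was called higher at 6 h (0.21 ± 0.07, adjusted p = 0.0332) on arrays of 0.09, -0.10 and 0.51. That call was lost without replicate 1 or 3 of that time, and without replicate 3 at every time the ratio was -0.0042. XPA, which verifies the lesion, was higher at 10 and 48 h by 0.19 and 0.15, and XPC, the global damage sensor, was called at no time. Both XPA calls were lost without replicate 3 of that time (adjusted p = 0.21 and 0.15), and the one at 48 h also without replicate 2 (adjusted p = 0.23).

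**Figure D3:**
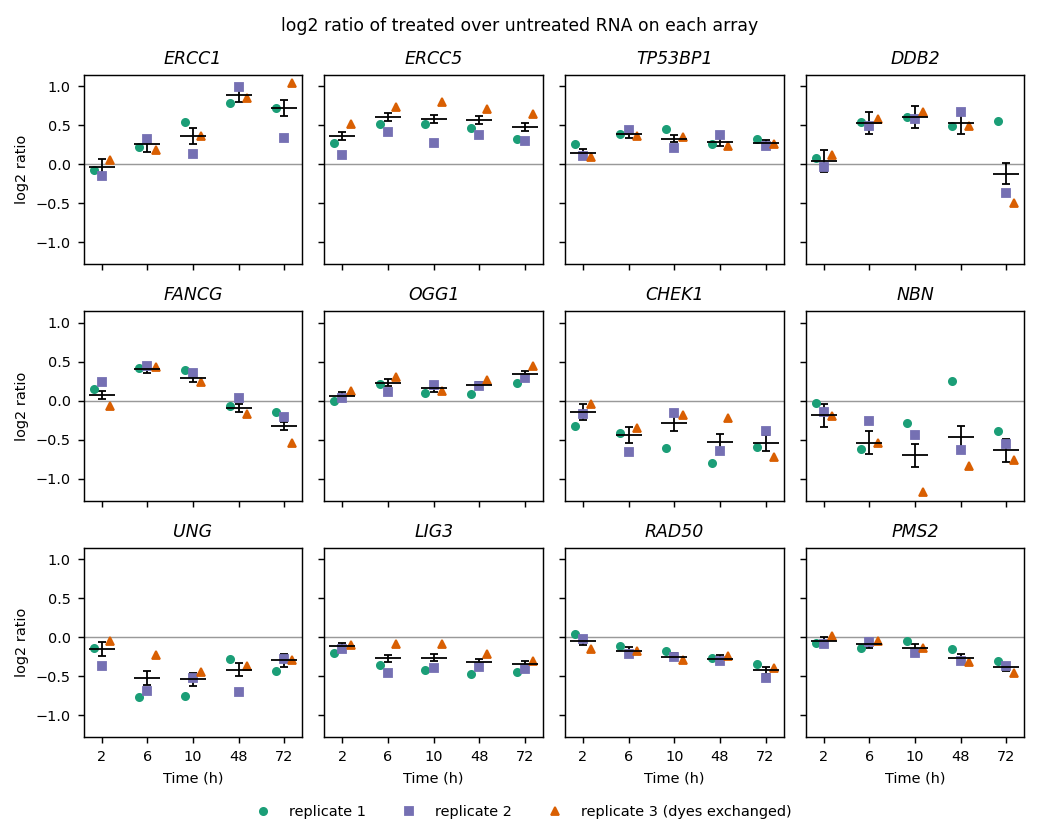
log2 ratio of treated over untreated RNA on each of the 3 arrays at 2, 6, 10, 48 and 72 h for 12 DNA repair genes (circles replicate 1, squares replicate 2, triangles replicate 3 with dyes exchanged). Horizontal bars are the fitted ratio and error bars its SE. ERCC1 climbs to 0.89 at 48 h, RAD50 and PMS2 drift down to -0.42 and -0.38 at 72 h, and the DDB2 arrays part at 72 h.

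Among genes that sense breaks and signal to the cell cycle, transcripts of NBN, RAD50 and CHEK1 were the lowest. NBN, MRE11 and RAD50 encode the complex that binds broken ends and recruits the kinase ATM. NBN gave -0.62, -0.26 and -0.54 at 6 h, then -0.29, -0.45 and -1.17 at 10 h, and -0.39, -0.56 and -0.75 at 72 h. At 48 h its replicate 1 was at 0.25, against -0.63 and -0.83 on the other 2 arrays. The fitted ratio was -0.54 ± 0.15, -0.70 ± 0.15, -0.47 ± 0.15 and -0.63 ± 0.15 at 6, 10, 48 and 72 h (limma adjusted p = 0.0145, 0.00304, 0.0234 and 0.00449). The NBN call at 72 h held whichever array of that time was left out, but not without replicate 3 at every time (-0.48, adjusted p = 0.092). Those at 6, 10 and 48 h were each lost without 1 or 2 arrays of their own time, with adjusted p reaching 0.12, 0.083 and 0.23.

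RAD50 was lower at each time from 6 h on, and its ratio moved further below 0 with time. Its arrays gave -0.12, -0.21 and -0.18 at 6 h, then -0.26, -0.31 and -0.24 at 48 h, and -0.34, -0.52 and -0.39 at 72 h. All 3 arrays at 72 h were lower than all 3 at 6 h. The ratio was -0.18 ± 0.05 at 6 h and -0.42 ± 0.05 at 72 h (limma adjusted p = 0.0125 and 1.44e-05), and the call at 6 h was lost without replicate 2 or 3 of that time (adjusted p = 0.098 and 0.066). The 11 array features of RAD50 differed from one another by at most 0.26 at any time. MRE11, the nuclease of the complex, was called at no time, with ratios between -0.06 and 0.08.

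CHEK1, the effector kinase that delays entry into mitosis, gave -0.41, -0.65 and -0.35 at 6 h, then -0.80, -0.65 and -0.22 at 48 h, and -0.59, -0.39 and -0.72 at 72 h. All 15 arrays were below 0. Its ratio was -0.53 ± 0.10 at 48 h and -0.54 ± 0.10 at 72 h (limma adjusted p = 0.00123 and 0.00109), about the same at both times, and both calls held whichever array of that time was left out. At 6 h it was -0.44 ± 0.10, and not called without replicate 2 of that time (adjusted p = 0.053). At 10 h its -0.29 lay at the threshold (adjusted p = 0.0521). It was called with the thawing as a fixed replicate block (adjusted p = 0.049) and, at -0.39, without replicate 2 of that time (adjusted p = 0.025). CHEK2, the effector kinase that acts after ATM, was lower at 6 h by 0.26 on the log2 scale, with arrays of -0.28, -0.29 and -0.23. It was also called at 72 h (-0.15 ± 0.04, adjusted p = 0.0173), but not without replicate 2 (adjusted p = 0.078) or replicate 3 (adjusted p = 0.30) of that time. The kinases ATM and ATR, which activate them, were called at no time.

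TP53BP1, a chromatin-bound factor that protects broken ends from resection and favours end joining, was higher from 6 h on. It gave 0.39, 0.44 and 0.36 at 6 h, then 0.45, 0.21 and 0.35 at 10 h, and 0.32, 0.24 and 0.26 at 72 h. All 15 arrays were above 0. The ratio was 0.39 ± 0.05 at 6 h and 0.26 ± 0.05 at 72 h (limma adjusted p = 9.04e-05 and 9.49e-04), and the calls from 6 to 72 h held whichever array of that time was left out. Its 2 array features did not move alike, since one averaged 0.71 at 6 h and the other 0.08.

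In homologous recombination the calls after 6 h were all in the lower direction. Of 12 genes measured, 3, 3, 5 and 6 were lower at 6, 10, 48 and 72 h. Of all genes 9.66%, 11.6%, 14.6% and 13.6% were lower at these times. At an unadjusted p under 0.05 in limma 2 of the 12 were higher at 10 h and 0 at 72 h. The exception was early, in BARD1, the ubiquitin ligase partner of BRCA1. BARD1 gave 0.54, 0.28 and 0.58 at 2 h and 0.42, 0.27 and 0.61 at 6 h, above 0 on all 6 arrays. Its ratio was 0.48 ± 0.09 at 2 h and 0.45 ± 0.09 at 6 h (limma adjusted p = 0.00775 and 0.00277), followed by 0.25, 0.19 and 0.13, none of them called. The 2 h call was lost without replicate 1 (adjusted p = 0.082) or replicate 3 (adjusted p = 0.13) of that time, and the 6 h call without replicate 3 (adjusted p = 0.053). BRCA1 was called at no time, with ratios between -0.10 and 0.02.

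The RecQ helicases BLM and WRN, which resolve recombination intermediates and stalled forks, were lower late. BLM gave 0.25, 0.21 and 0.05 at 6 h and 0.23, 0.15 and 0.18 at 10 h, against -0.20, -0.07 and -0.62 at 72 h. The early and the 72 h arrays of BLM did not overlap, and replicate 3 was far below the others at 72 h. BLM was at -0.32 ± 0.07 at 72 h (limma adjusted p = 0.00218), and without replicate 3 of that time it was at -0.17 and not called (adjusted p = 0.069). WRN gave -0.09, -0.35 and -0.18 at 48 h and -0.21, -0.56 and -0.28 at 72 h, with a ratio of -0.34 ± 0.06 at 72 h (adjusted p = 0.00111) that was called whichever array of that time was left out. At 48 h WRN was at -0.20 ± 0.06 and lost its call without replicate 2 (adjusted p = 0.20) or replicate 3 (adjusted p = 0.16) of that time.

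RAD54L, a motor protein that helps the recombinase filament invade the sister duplex, gave -0.43, -0.46 and -0.20 at 48 h and -0.44, -0.02 and -0.68 at 72 h. All 6 arrays were below 0, but they spread widely at 72 h. The ratios of -0.35 ± 0.11 and -0.37 ± 0.11 (limma adjusted p = 0.0177 and 0.0147) each lost their call without some single array of that time, with adjusted p up to 0.097 at 48 h and 0.39 at 72 h. PALB2, which links BRCA1 to the recombinase loader, was called at 48 h (-0.37 ± 0.11, adjusted p = 0.0188) on arrays of -0.12, -0.30 and -0.58. RAD52, a strand annealing protein, gave -0.12, -0.56 and -0.30 at 72 h, a ratio of -0.33 ± 0.07 (adjusted p = 0.00234) that held whichever array of that time was left out. The PALB2 call was lost without replicate 2 (adjusted p = 0.08) or replicate 3 (adjusted p = 0.19) of that time.

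The 4 paralogues of the recombinase among the genes, which help to load it, did not move as 1 group. XRCC3 gave -0.29, -0.26 and -0.16 at 6 h and was lower at 6, 10 and 48 h by 0.23, 0.21 and 0.19 on the log2 scale, all 3 calls holding whichever array of that time was left out. XRCC2 ratios lay between -0.24 and -0.23 at the 4 later times, and each of these calls was lost without at least 1 array of its own time. RAD51D was called at 6 and 72 h at -0.17 and -0.15, and both calls were lost without some single array of that time. RAD51C was called at no time, with arrays of -0.28, 0.49 and -0.17 at 72 h, and without replicate 2 of that time its ratio was -0.22 (adjusted p = 0.0467). EXO1, the nuclease that resects broken ends, was also called at no time.

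The Fanconi anaemia genes held the 1 of 46 repair genes called in both directions, against 333 of all 18334 genes. FANCG, an adaptor of the core complex that marks crosslinked DNA, gave 0.42, 0.45 and 0.44 at 6 h and 0.39, 0.35 and 0.24 at 10 h, against -0.14, -0.21 and -0.54 at 72 h. The arrays at 6 h were nearly identical, and those at 72 h were all below 0. Its ratio was 0.40 ± 0.05 at 6 h and 0.30 ± 0.05 at 10 h (limma adjusted p = 9.07e-05 and 7.90e-04) but -0.33 ± 0.05 at 72 h (adjusted p = 2.60e-04), and all 3 calls held whichever array of that time was left out. FANCG had the smallest p of all repair genes in the F test between times.

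FANCL, the ubiquitin ligase subunit of the core complex, was higher at 10 and 48 h. It gave 0.05, 0.27 and 0.39 at 48 h, a ratio of 0.28 ± 0.06 (limma adjusted p = 0.00345), which was not called without replicate 3 at every time (0.16, adjusted p = 0.25). At 10 h its replicate 1 was at -0.06 and the ratio of 0.21 lost its call without replicate 2 or 3 of that time (adjusted p = 0.14 and 0.20). FANCC, another core subunit, gave -0.22, -0.26 and -0.35 at 6 h (-0.30 ± 0.06, adjusted p = 0.00314), not called without replicate 3 at every time (adjusted p = 0.089), and was no longer called at 48 or 72 h. Its call at 10 h (-0.24) was lost without replicate 1 (adjusted p = 0.085) or replicate 3 (adjusted p = 0.13) of that time. FANCE, a further core subunit, and FANCI, a partner in the complex that receives the ubiquitin, were called lower at 72 h, at -0.34 and -0.27. FANCI gave 0.04, -0.11 and -0.69 there, and without replicate 3 its ratio was -0.02 (adjusted p = 0.88). FANCE was not called without replicate 2 (adjusted p = 0.085) or replicate 3 (adjusted p = 0.15).

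The 5 end joining genes of the list were lower or not called. None of the 5 was higher at any time, also at an unadjusted p under 0.05 in limma. The share of all genes called higher ran from 4.82% at 2 h to 23.3% at 48 h. For as few as 5 genes, 0 is not far from these shares. Of 7 other end joining genes 0, 2, 1, 2 and 2 were higher at 2, 6, 10, 48 and 72 h. As many of the 7 were lower at each of these times. At 72 h 4 of the 5 end joining genes were lower, against 13.6% of all genes. They were PRKDC, the catalytic subunit of the end-binding kinase, XRCC5 and XRCC6 of the end-holding Ku ring, and XRCC4, the ligase scaffold. The ratios at 72 h were -0.31, -0.15, -0.20 and -0.14 in that order, and all 4 calls were lost without replicate 3 of that time (adjusted p = 0.16, 0.13, 0.48 and 0.19). The XRCC4 call was also lost without replicate 1 (adjusted p = 0.053). At 48 h XRCC5 gave -0.30, -0.23 and -0.09, a ratio of -0.19 ± 0.04 (limma adjusted p = 0.00222) that held whichever array of that time was left out, but not without replicate 1 at every time (adjusted p = 0.054). XRCC4 was lower at 6 h with -0.14, -0.21 and -0.26 on its arrays, and this call held likewise. LIG4, the ligase itself, was called at no time.

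Base excision and single-strand break repair split in opposite directions. UNG, the glycosylase that removes uracil, gave -0.77, -0.69 and -0.22 at 6 h, then -0.76, -0.52 and -0.44 at 10 h, and -0.43, -0.27 and -0.29 at 72 h. Its ratios of -0.52 ± 0.09 and -0.54 ± 0.09 at 6 and 10 h (limma adjusted p = 5.66e-04 and 4.32e-04) lay below the one at 72 h (-0.30 ± 0.09), a difference between times that the F test did not call (adjusted p = 0.10). The call at 72 h was lost without replicate 1 (adjusted p = 0.064) or replicate 3 (adjusted p = 0.20) of that time. LIG3, which seals the nick, was lower at 6, 10, 48 and 72 h at -0.27, -0.26, -0.32 and -0.35, and all 4 calls held whichever array of that time was left out. LIG3 was also among the genes with a called dye term, and its 2 array features averaged -0.06 and -0.65 at 48 h.

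XRCC1, the scaffold that binds LIG3, went up where LIG3 went down. It gave 0.31, 0.16 and 0.52 at 6 h and 0.40, 0.14 and 0.44 at 10 h, with ratios of 0.36 ± 0.07 at both times (limma adjusted p = 0.00126 and 0.00129). At 72 h its arrays gave 0.07, -0.22 and 0.06 and the ratio was 0.00, so all arrays at 6 and 10 h exceeded those at 72 h. Its dye term was called (adjusted p = 0.0415), and without replicate 3 at every time neither early call was kept (adjusted p = 0.12 at 6 h and 0.082 at 10 h). The 48 h call (0.26 ± 0.07) was lost without replicate 2 (adjusted p = 0.085) or replicate 3 (adjusted p = 0.062) of that time. OGG1, the glycosylase for oxidised guanine, gave 0.22, 0.30 and 0.45 at 72 h (0.34 ± 0.04, adjusted p = 5.51e-05) and was higher at 6, 10 and 48 h as well, the 10 h call being lost without replicate 1 (adjusted p = 0.052) or replicate 2 (adjusted p = 0.11) of that time. Without replicate 3 at every time OGG1 was not called at 6 h (adjusted p = 0.07) or 48 h (adjusted p = 0.12). The 3 array features of OGG1 differed by up to 0.55 at 48 h, 1 of them staying near 0. PARP1, the break sensor that recruits XRCC1, was called lower only at 72 h (-0.20 ± 0.06), and not without replicate 2 (adjusted p = 0.09) or replicate 3 (adjusted p = 0.16) of that time.

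Of the mismatch repair genes measured, PMS2, the endonuclease subunit that cuts the new strand, was lower late. It gave -0.15, -0.30 and -0.32 at 48 h and -0.31, -0.37 and -0.45 at 72 h. The arrays at 2 h, with -0.07, -0.08 and 0.02, all lay above these. The ratio was -0.26 ± 0.05 at 48 h and -0.38 ± 0.05 at 72 h (limma adjusted p = 8.27e-04 and 4.61e-05), and both calls held whichever array of that time was left out. MSH6, which recognises the mismatch, was called only at 6 h (-0.16 ± 0.05, adjusted p = 0.0356), and that call was lost without any one of the 3 arrays of that time. MGMT, which removes alkyl groups from guanine, was called at no time, with ratios between -0.02 and 0.01.

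Whether the response differed between late and early times was tested as the average ratio of the 48 and 72 h arrays less that of the 2, 6 and 10 h arrays. Here 2 repair genes were higher and 6 lower, against 14.9% and 11% of all genes. The largest rise was in ERCC1 (0.61 ± 0.09, limma adjusted p = 3.30e-04). Of the 6 called lower, the lowest were FANCG (-0.47 ± 0.05, adjusted p = 1.23e-05), BLM (-0.35 ± 0.06, adjusted p = 9.86e-04), ERCC2 (-0.26 ± 0.04, adjusted p = 9.87e-04) and PMS2 (-0.23 ± 0.04, adjusted p = 0.00168). WRN and RAD50 followed at -0.22 and -0.19. OGG1 was the other gene called higher, at 0.12 ± 0.04 (adjusted p = 0.0489), and with the thawing as a replicate block it was no longer called (adjusted p = 0.0528). RAD50 was not called with arrays scaled (-0.13, adjusted p = 0.13). Leaving out replicate 3 at every time left 3 lower genes (3.44% of all genes), and leaving out replicate 1 or 2 at 72 h gave 10 and 11 (11.4% and 10.9%). DDB2 was not called (-0.18), but without replicate 1 at 72 h its difference was -0.35 (adjusted p = 2.60e-04).

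**Figure D4:**
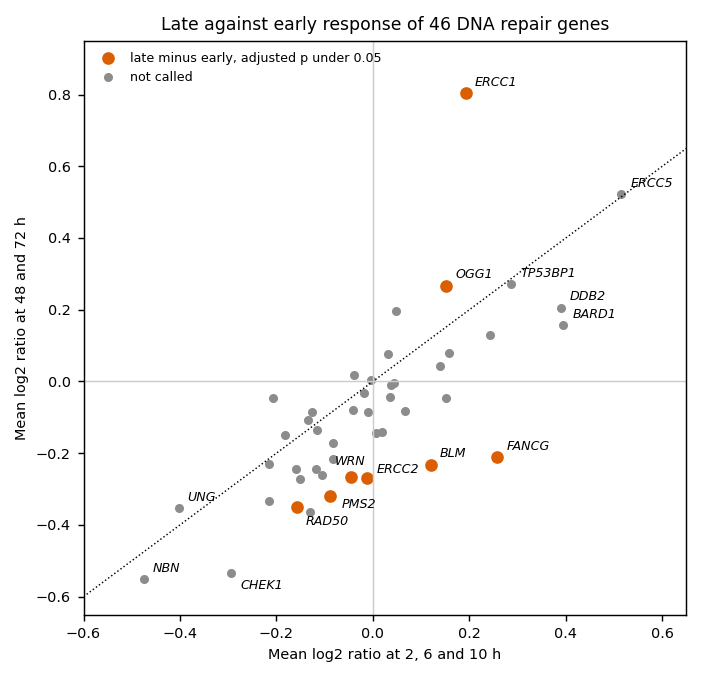
Mean log2 ratio at 48 and 72 h (vertical axis) against the mean at 2, 6 and 10 h (horizontal axis) for the 46 DNA repair genes. Orange points were called late minus early and grey points were not, and the dotted line marks equal ratios. ERCC1 and OGG1 lie above the line, while FANCG, BLM, ERCC2, PMS2, WRN and RAD50 lie below it.

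An F test of each later time against 2 h called 10 of the 46 repair genes, against 23.3% of all genes. They were FANCG, ERCC1, ERCC2, BLM, RAD50, PMS2, XRCC1, DDB2, FANCL and OGG1. End joining had none of the 10, and nucleotide excision repair had 3. The count was 6 without replicate 3 at 72 h, 5 without replicate 2 at every time and 1 without replicate 3 at every time. The share of all genes called by the F test under these settings is not given here.

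Other genes of the same pathways, 89 measured outside the 46, are described by their counts at 72 h. Of all genes 22.1% were higher and 13.6% lower at that time. In the remaining recombination and crosslink genes 4 of 20 were higher and 7 lower, with EME1, a subunit of a junction-cutting nuclease, at -0.37 and SEM1, a small partner of the recombinase loader, at 0.48. In nucleotide excision repair 1 of 14 was higher and 6 were lower. These included the TFIIH subunits GTF2H1 and GTF2H3 at -0.50 and -0.47, on the same side as ERCC2, and CETN2, a partner of XPC, at 0.69. In base excision repair 1 of 16 was higher and 5 were lower, with TDP1, which clears blocked break ends, at -0.58 and PARP2, a second break sensor, at -0.45. All 3 of the other mismatch repair genes were lower, with MSH3 at -0.39 and PMS1 at -0.32. In break signalling 1 of 20 was higher and 7 were lower, led by TIMELESS at -0.52 and CDC25A at -0.47, in end joining 2 of 7 were higher and 2 lower, and in translesion synthesis 2 of 9 were higher and 3 lower. At 10 h NEIL1, a glycosylase for oxidised bases, was at 1.02, higher than any of the 46.

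Genes of S phase and mitosis were lower beside the repair genes at 72 h, but hardly at 6 h. At 6 h 12 of 46 repair genes were lower, against 9.66% of all genes. Of 24 S phase genes 1 was lower and 0 higher then, with a median of -0.05. Of 22 mitotic genes 1 was lower and 2 higher at 6 h, with a median of 0.09. At 72 h 0 S phase genes were higher and 10 lower, with a median of -0.23. Of the mitotic genes 0 were higher and 17 lower at 72 h, with a median of -0.42. Of all genes 22.1% were higher and 13.6% lower at that time. At 10 h 6 S phase genes were lower and 0 higher, and 2 mitotic genes were lower and 1 higher. This compares with 11.6% of all genes lower and 18.1% higher at 10 h. At an unadjusted p under 0.05 in limma 13 S phase and 17 mitotic genes were lower at 72 h and 0 of either list were higher. ORC1 and CDT1, which license replication origins, were at -0.77 and -0.69 at 72 h, and the mitotic kinases TTK and PLK1 were at -0.60 and -0.58. The array that was lowest for the repair genes at 72 h, replicate 3, was also lowest for these lists. Its median was -0.51 for S phase genes, against -0.19 and 0.07 on replicates 1 and 2, and -0.72 for mitotic genes, against -0.26 on each of the other 2. The part of these cell cycle genes in the lower repair genes was not tested, and fewer cells in S phase and less RNA per cell cannot be told apart in bulk RNA.

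**Figure D5:**
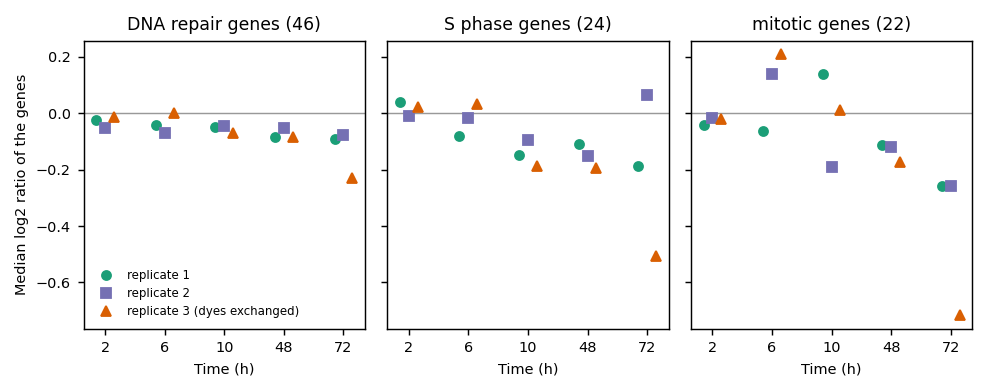
Median log2 ratio over the 46 DNA repair genes (left), 24 S phase genes (middle) and 22 mitotic genes (right) on each array at 2, 6, 10, 48 and 72 h (circles replicate 1, squares replicate 2, triangles replicate 3 with dyes exchanged). Replicate 3 at 72 h is the lowest point of all 3 panels, at -0.23, -0.51 and -0.72.

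Some blood cell markers were also called at 72 h, when 22.1% of all genes were higher and 13.6% lower. Their list medians lay between 0.00 and 0.10. The part of these markers in the repair genes was not tested. Of 11 erythroid markers 2 were higher (TFRC at 0.62 and EPOR at 0.54) and 3 lower (HBZ at -0.90 and KLF1 at -0.50 the lowest). Of 9 megakaryocyte markers 3 were higher and 0 lower, of 11 granulocyte and monocyte markers 3 were higher and 0 lower, with LYZ at 1.76, and of 7 lymphocyte markers only CD3D was called, at 1.57. At an unadjusted p under 0.05 in limma, 0 megakaryocyte, 1 granulocyte or monocyte and 0 lymphocyte markers were lower. Ratios give no summed level for these lists.

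Array features bear on how far single genes can be read. The 46 genes were measured by 119 features, with 26 genes resting on 1 feature and 20 on several. In 14 of these 20, features of the same gene lay on opposite sides of 0 at some time. The gap between features exceeded 0.5 for XRCC6, OGG1, LIG3, LIG4 and TP53BP1. NBN was lower on both of its features, at -0.79 and -0.35 at 72 h. EXO1, PARP1 and WRN, with 10 features each, showed gaps of at most 0.12 between features.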

How the data were processed

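The authors deposited 1 log ratio for each of 45220 probes on each of 15 arrays, with treated RNA over untreated, per the labels. No base is named, and these deposited values, from -4.09 to 4.83, were read as log2. The ratios were made with limma, per the submitters' processing notes, with no version named. Background correction and normalization are not given in the sources used here. Cultures began 10 days ahead of treatment from a thawed vial, and 700 ng of RNA was labelled, per the labels' protocols. Intensities were not used here, and 0 value columns went unused.

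Direction was taken from the labels and dyes. Over genes, replicate 3 correlated with the mean of replicates 1 and 2 at 0.54, 0.72, 0.67, 0.83 and 0.81 at 2, 6, 10, 48 and 72 h, so its values were used as deposited. Over all probes this was -0.0895 at 2 h, where the direction is least certain.

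Probes with 1 symbol (31332) were averaged per gene, while 93 with several and 13795 with none were left out. Symbols were updated through the gene identifier for 31291 probes. The model (limma 3.58.1, lmFit and eBayes, R 4.3.3) held 5 time means plus a dye term per gene, which left 9 residual and 3.47 prior degrees of freedom. The dye term also holds what is peculiar to the third thawing and was called for 3693 genes. Adjusted p values are Benjamini-Hochberg over all genes of a comparison. The calculation was tested on simulated data.

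Arrays of the same number share a thawing, per the labels. Their residual correlations without the dye term averaged 0.18, 0.15 and 0.52 for replicates 1, 2 and 3.

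The members and the other gene lists were chosen with earlier results of these data known. Values on every array were given for, at each time, the 4 highest and 4 lowest members called with 1 sign on all 3 arrays, the 4 highest and 4 lowest of late minus early, and the 2 members of each role with the smallest p of the F test. A part of these is printed. Of other lists at most the 2 highest and 2 lowest called genes at 10 and 72 h were named. Alternatives were no dye term, thawing as a fixed or random block, the median of probes, centred or scaled arrays, array weights, robust eBayes, single arrays or replicates left out, and each time fitted alone.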

Additional observations from a re-analysis of the deposited data

Results flagged for a closer look

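The late response (mean of 48 and 72 h) differed from the early one (mean of 2, 6 and 10 h) in limma, at an adjusted p under 0.05, for 8 repair genes, where 14.9% of all genes were higher and 11% lower. The late minus early difference was -0.47 for FANCG, -0.35 for BLM, -0.26 for ERCC2, -0.23 for PMS2, -0.22 for WRN and -0.19 for RAD50, and it was 0.61 for ERCC1 and 0.12 for OGG1. FANCG crossed from higher to lower, the mean ratios of ERCC1 and OGG1 were above 0 both early and late, and the early ratios of ERCC2 and WRN were close to 0.

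The calls for ERCC2, PMS2 and WRN were lost without replicate 3 at every time (adjusted p = 0.052, 0.081 and 0.15), those for WRN and RAD50 without replicate 2 at every time (adjusted p = 0.078 and 0.059), that for RAD50 also with arrays scaled (-0.13, adjusted p = 0.13), and that for OGG1 without most single arrays.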

How the results depend on the processing

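Member counts moved by more than 1.5 times under these settings. Without the dye term 1 repair gene was higher at 2 h and 5 at 48 h, against 3.54% and 20.9% of all genes. Late minus early 1 was higher, against 12.1%, and the F test called 6. With arrays scaled, 4 were higher and 7 lower at 2 h, against 13.9% and 7.21% of all genes, and the F test called 6. Calls over all genes at 2 h also went to 3875 with scaling. With array weights, 4 repair genes were higher and 6 lower at 2 h, against 12.2% and 5.58% of all genes. Late minus early these weights gave 4 higher and 11 lower, against 16.3% and 12.1%, and the F test called 18. With each time fitted alone, 1 was higher at 2 h, and 4 were higher and 1 lower at 10 h. At 48 h 4 were higher and 8 lower, and at 72 h 8 were lower. These fits called 1235, 2712, 5028 and 2999 of all genes in either direction at 2, 10, 48 and 72 h. At an unadjusted p under 0.05 in limma they gave 9 higher and 11 lower repair genes at 10 h and 17 lower at 72 h. Late minus early 1 was higher with the median of probes, with arrays centred, and with the thawing as a fixed or random replicate block. In that order 14.4%, 14.5%, 14.8% and 14.5% of all genes were higher. OGG1 lost its call with the blocks (limma adjusted p = 0.0528 and 0.0546). The fixed block also called CHEK1 lower at 10 h, and the blocks changed no other member call.

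With single arrays or replicates left out, the counts of higher genes ranged from 0 to 2 at 2 h, from 4 to 10 at 6 h, from 5 to 11 at 10 h, from 5 to 9 at 48 h and from 1 to 3 late minus early, and stood at 4 throughout at 72 h. The counts of lower genes stood at 0 throughout at 2 h and ranged from 6 to 12 at 6 h, from 5 to 12 at 10 h, from 9 to 15 at 48 h, from 9 to 23 at 72 h and from 3 to 11 late minus early. The F test called from 1 to 12. The RAD51C ratio at 72 h ranged from -0.22 (without replicate 2, at every time or at 72 h alone) to 0.20, and the ERCC3 ratio at 6 h from -0.0042 (without replicate 3 at every time) to 0.30. The causes were not tested.

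At 72 h, 13 of the 22 lower calls rested on replicate 3 of that time. Ratios without intensities leave the reliability of dim probes unknown, and residual spread was pooled over times. The replicates come from separate thawings of 1 line.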

Other observations

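At 10 h the other genes of the repair pathways went in both directions, as did all genes, of which 18.1% were higher and 11.6% lower. In the remaining recombination and crosslink genes 3 of 20 were higher and 1 lower, led by RMI2, a partner of the BLM helicase, at 0.57. In the remaining nucleotide excision repair genes 3 of 14 were higher and 5 lower, with MNAT1, an assembly factor of the TFIIH kinase, at 0.44 and RAD23B, a stabiliser of XPC, at -0.37. In break signalling 3 of 20 were higher and 6 lower. CDC25B, a phosphatase that promotes mitotic entry, was at 0.37, and HUS1, a subunit of the checkpoint clamp, was at -0.55. These are limma ratios from the same fit, and the difference between the 2 times was not tested for these lists.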
